A study of Mus musculus with 12 samples.

Results

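Collagen chain genes were examined in medulloblastomas (MBs) of 2 genotypes, *NdpKO;Ptch+/-* and *Ptch+/-*, and in granule neuron progenitors (GNPs) of wild-type mice. Members were all genes with a symbol of the form *Col*, a number, *a* and a number, and of several probes for a gene the one with the highest average signal over all 12 arrays was used. This gave 41 genes, covered by 91 probes, of 19057 genes in all. Of these, 11 encode fibrillar collagens, 8 basement membrane collagens, 7 fibril-associated collagens and 15 other collagens. *Col6a3*, a partner chain in collagen VI, was not analysed here.

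Illumina MouseWG-6 v2.0 BeadChips gave 1 profile for each of the 12 samples, 4 *NdpKO;Ptch+/-* MBs of mixed strain background, 4 *Ptch+/-* MBs of C57Bl/6 background and 4 wild-type C57Bl/6 GNP samples taken at postnatal day 6. Both kinds of tumor arose in mice with 1 mutant allele of *Ptch*, the gene of the Hedgehog receptor Patched. The comparison between them asked how loss of *Ndp*, the gene of the secreted Wnt-pathway ligand Norrin, alters the tumor. *Ndp* is disrupted in every cell by a *lacZ* cassette and lies on the X chromosome, so by the breeding scheme *NdpKO;Ptch+/-* mice are *Ndp-/y* males, whereas controls include both sexes. The labels give no age or sex for the tumors. The paper reports a shorter mean latency of MBs in *NdpKO;Ptch+/-* mice, so age may also differ between the tumor genotypes. For its PCR of *Ptch+/-* MBs it used symptomatic animals that were months old, so tumors and GNPs probably differ in age too. Age therefore cannot be told apart from genotype, or from the difference between tumors and GNPs. The study describes GNP profiles from 4 animals per group. The titles give each tumor sample a different number, but no source used here states that each tumor came from a separate mouse, so the spread among them may be technical. Because strain background is labelled differently for the tumor genotypes, strain and genotype cannot be told apart, although the methods describe controls from the same breeding cohort. GNPs had been purified by density gradient and pre-plating and tumors had not, so stromal content can differ between them, and in such bulk RNA fewer cells of a type and less RNA per cell cannot be told apart.

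Collagens are triple helices of 3 α chains. Fibrillar collagens give tissues tensile strength, whereas collagen IV forms the sheet of the basement membrane that surrounds blood vessels and lines the inner face of the meninges. In the normal brain most collagen lies in the vessel walls and meninges rather than among neurons and their progenitors. Fibril-associated collagens such as XVI and IX decorate fibrils and other matrix assemblies, and collagen VI forms beaded filaments beside basement membranes.

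Promoter sequences are shown for the genes that differed most between the tumor genotypes, *Col6a1* and *Col16a1*, and for *Col4a1* and *Col4a2*, a head-to-head pair whose transcripts start a few bases apart on opposite strands. They come from RefSeq, build GRCm38.p6. Those of *Col6a1* and *Col16a1* run 5′ to 3′ up to the annotated start. That of *Col4a1* and *Col4a2* spans both annotated starts, start bases included, and may lie inside the transcripts rather than before them. The *Col6a1* stretch is chr10:76726045-76726294 on the minus strand, the *Col16a1* stretch is chr4:130047590-130047816 on the plus strand, and the stretch between the starts of *Col4a1* and *Col4a2* is chr8:11312805-11312826 on the plus strand. Capitals mark the motifs found when both strands were searched for the GC box GGGCGG, the CCAAT box, the core CTTTGA recognised by TCF/LEF factors of the Wnt pathway, and the TATA box TATAAA.
Col6a1 promoter: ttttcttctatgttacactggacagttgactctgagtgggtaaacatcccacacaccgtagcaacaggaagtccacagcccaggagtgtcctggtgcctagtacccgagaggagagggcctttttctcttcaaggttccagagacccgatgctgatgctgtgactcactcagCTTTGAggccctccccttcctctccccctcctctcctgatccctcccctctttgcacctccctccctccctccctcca
Col16a1 promoter: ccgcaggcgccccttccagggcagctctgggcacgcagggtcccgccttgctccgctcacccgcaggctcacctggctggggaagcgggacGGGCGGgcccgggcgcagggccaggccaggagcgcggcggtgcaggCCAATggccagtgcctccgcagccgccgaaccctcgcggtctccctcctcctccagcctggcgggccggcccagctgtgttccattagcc
Col4a1 and Col4a2 shared stretch: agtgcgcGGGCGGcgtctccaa
The *Col6a1* stretch held 1 CTTTGA, which 13.8% of 32851 mouse promoter stretches of the same length also hold. The *Col16a1* stretch held 1 GGGCGG and 1 CCAAT, against 32% and 31.8% of stretches of its length. The short stretch shared by *Col4a1* and *Col4a2* held 1 GGGCGG, found in 7.19% of stretches of 22 bases just before an annotated start, which may not be a like region. These motifs do not overlap, and a match is a description of the letters and not evidence of binding.

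The probe for *Ndp* lay between 4.12 and 4.21 on all 12 arrays, under a background limit of 4.5 on the log2 scale of normalized signal, so it could not check the genotypes. Of 8 measured granule progenitor markers, *Zic1* (13.60 to 14.32), *Barhl1* and *Meis1* were bright in all groups, while *Atoh1* was under the limit on every array, GNPs included. The arrays were quantile normalized, so differences in general level between arrays cannot be seen.

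Of the 41 collagen chain genes, 17 (41.46%) reached the limit on at least 1 array, a share near the 50.63% of all genes, and 24 stayed between 4.10 and 4.49 on all 12 arrays. The mean reached the limit for 9 genes in *NdpKO;Ptch+/-* MBs, 10 genes in *Ptch+/-* MBs and 14 genes in GNPs. By class, the limit was reached on some array by 6 of 11 fibrillar, 5 of 8 basement membrane, 2 of 7 fibril-associated and 4 of 15 other genes. The 6 genes that reached it on all 12 arrays were *Col4a1*, *Col4a2* and *Col18a1* of the basement membrane, fibrillar *Col5a1*, and fibril-associated *Col16a1* and *Col9a2*.

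**Figure D1:**
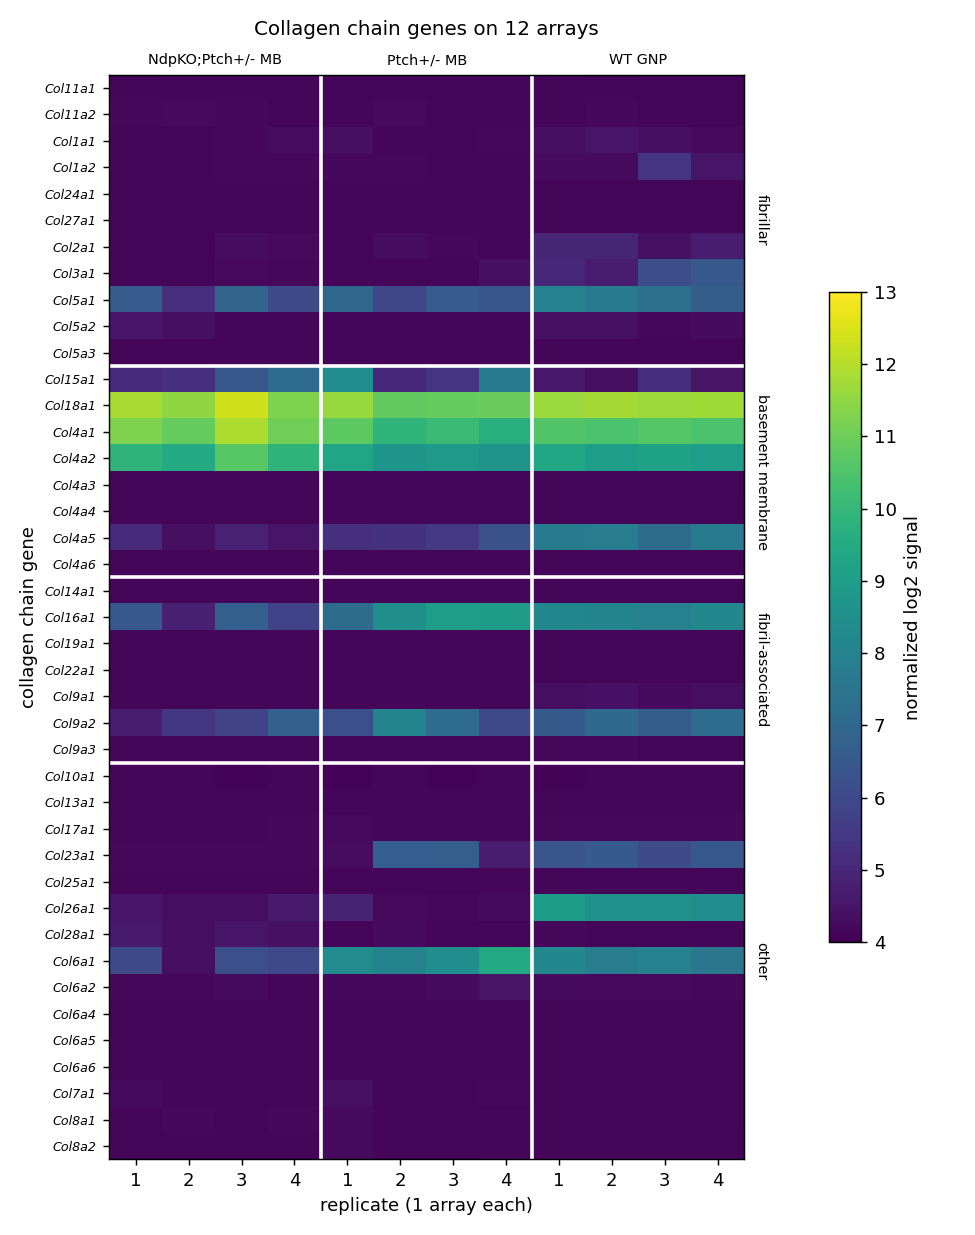
Log2 normalized signal (colour scale, 4 to 13) of all 41 collagen chain genes, in rows by class, on each of the 12 arrays, in columns by group. *Col4a1*, *Col4a2* and *Col18a1* are bright on every array (8.67 to 12.35), whereas *Col6a1* and *Col16a1* are dimmer on the *NdpKO;Ptch+/-* MB arrays and *Col26a1* is bright on the GNP arrays alone.

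Between the tumor genotypes, *Col6a1* and *Col16a1* were lower in *NdpKO;Ptch+/-* MBs than in *Ptch+/-* MBs and *Col28a1* was higher, while the remaining 38 collagen chain genes did not pass the test. Differences were tested with limma in one model over the 12 arrays, and a gene passed at an adjusted p (Benjamini-Hochberg over all probes) under 0.05. The 1 higher gene of 41 stands beside 0.808% of all genes called higher, and the 2 lower genes beside 1.26% called lower. At an unadjusted p under 0.05, 5 genes were higher and 6 lower. When the 8 tumors were fitted alone, 0 collagen chain genes passed by limma (4 higher and 4 lower at an unadjusted p under 0.05), and 15 of all genes were called higher and 30 lower. The median log2 fold change over the 41 genes was -0.0029, against 0.0007 over all genes. Among the 10 genes whose mean reached the limit in a tumor group, the tumor genotypes did not overlap for 2 genes that were higher in *NdpKO;Ptch+/-* MBs (*Col4a1* and *Col4a2*) and 4 that were lower (*Col6a1*, *Col16a1*, *Col4a5* and *Col23a1*). Over all 8933 genes with such a mean, these shares were 7.63% and 7.90%.

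**Figure D2:**
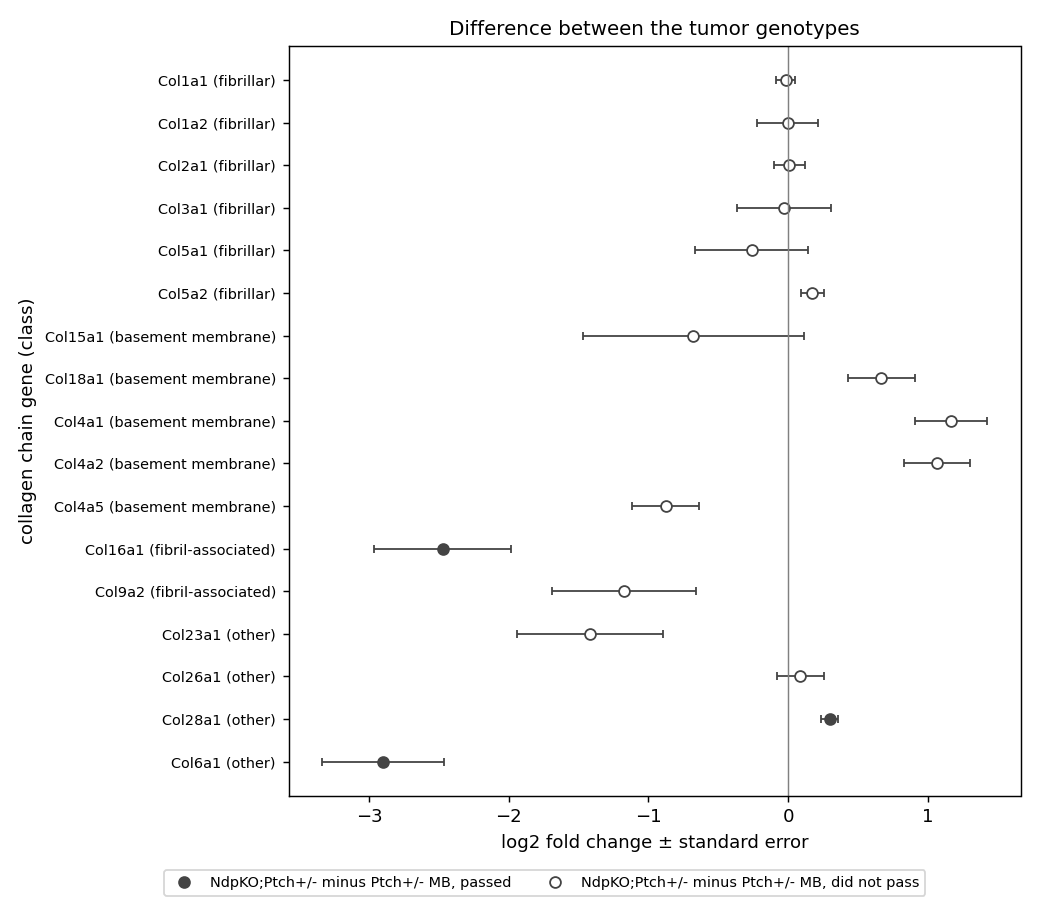
Log2 fold change of *NdpKO;Ptch+/-* MBs minus *Ptch+/-* MBs (horizontal axis, points with standard errors from limma) for the 17 collagen chain genes that reached the background limit; filled points passed at an adjusted p under 0.05. *Col6a1* (-2.90) and *Col16a1* (-2.47) lie far to the left, *Col28a1* (0.30) passed at a small difference, and *Col4a1* (1.17) and *Col4a2* (1.06) lie to the right without passing.

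*Col6a1* encodes the α1 chain of collagen VI, and its promoter stretch is printed above. The log2 signal was 6.11, 4.36, 6.21 and 5.99 in the *NdpKO;Ptch+/-* MBs and 8.34, 8.03, 8.42 and 9.47 in the *Ptch+/-* MBs. Every *NdpKO;Ptch+/-* MB lay below every *Ptch+/-* MB, and 1 of them lay under the background limit. The means were 5.67 ± 0.87 and 8.56 ± 0.63 (SD, n = 4 each), a 7.45-fold difference (log2 fold change -2.90, SE 0.44, adjusted p = 0.0159 by limma). A second *Col6a1* probe, at 4.20 to 4.75 in *NdpKO;Ptch+/-* MBs and 6.85 to 8.99 in *Ptch+/-* MBs, also passed (adjusted p = 0.0044), and the remaining probe was under the limit throughout. The partner chain *Col6a2*, the neighbour of *Col6a1* in the genome, was under the limit on all 12 arrays with a highest value of 4.49, as were *Col6a4*, *Col6a5* and *Col6a6*.

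*Col16a1* encodes the chain of collagen XVI, a fibril-associated homotrimer. Its log2 signal was 6.44, 4.77, 6.77 and 5.79 in the *NdpKO;Ptch+/-* MBs and 7.17, 8.49, 9.04 and 8.95 in the *Ptch+/-* MBs. The genotypes did not overlap, with the *NdpKO;Ptch+/-* array that was lowest for *Col6a1* lowest here too. The means were 5.94 ± 0.88 and 8.41 ± 0.86 (SD, n = 4 each), a 5.54-fold difference (log2 fold change -2.47, SE 0.49, adjusted p = 0.0452 by limma). Fitted without 1 array at a time, *Col16a1* passed in 2 of 12 fits, those without *NdpKO;Ptch+/-* replicate 3 and without *Ptch+/-* replicate 1, and its adjusted p ranged from 0.0094 to 0.218 over all alternatives. *Col6a1* passed in all 12 such fits.

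Of the other fibril-associated genes, *Col9a2*, a chain of the cartilage and eye collagen IX, was the one further gene above the limit. It measured 4.74, 5.45, 5.73 and 6.76 in *NdpKO;Ptch+/-* MBs and 6.18, 8.07, 7.14 and 5.99 in *Ptch+/-* MBs, with overlap between the genotypes (log2 fold change -1.17, adjusted p = 0.370 by limma). Its partner chains *Col9a1* and *Col9a3* were under the limit on every array.

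The collagen IV chains of vessel walls, *Col4a1* and *Col4a2*, were bright in every sample. *Col4a1* measured 11.24, 10.88, 11.90 and 11.03 in *NdpKO;Ptch+/-* MBs and 10.72, 9.90, 10.14 and 9.64 in *Ptch+/-* MBs. *Col4a2* measured 9.84, 9.51, 10.65 and 9.87 against 9.34, 8.74, 8.84 and 8.67. For both genes all 4 *NdpKO;Ptch+/-* MBs lay above all 4 *Ptch+/-* MBs, with *NdpKO;Ptch+/-* replicate 3 highest and *Ptch+/-* replicate 4 lowest. The differences did not pass, at means of 11.26 ± 0.45 and 10.10 ± 0.46 (SD, n = 4 each) and a log2 fold change of 1.17 (SE 0.26, 2.25-fold, adjusted p = 0.0668) for *Col4a1*, and means of 9.96 ± 0.49 and 8.90 ± 0.30 and a log2 fold change of 1.06 (SE 0.24, 2.09-fold, adjusted p = 0.0683) for *Col4a2* by limma. Both passed under 4 of 11 alternative settings. With probes under the limit on every array left out of the fit, 2 collagen genes were higher, *Col4a1* and *Col4a2*.

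*Col18a1*, the multiplexin gene whose product releases endostatin, measured 11.81, 11.49, 12.35 and 11.24 in *NdpKO;Ptch+/-* MBs and 11.61, 10.79, 10.86 and 10.96 in *Ptch+/-* MBs. The highest *Ptch+/-* MB, replicate 1, lay within the *NdpKO;Ptch+/-* range (log2 fold change 0.67, SE 0.24, adjusted p = 0.261 by limma). *Col4a5*, an X-linked collagen IV chain, measured 5.08, 4.37, 4.81 and 4.51 against 5.25, 5.32, 5.50 and 6.22. These groups did not overlap but lay near the limit, and the difference did not pass (log2 fold change -0.88, SE 0.24, adjusted p = 0.135). *Col4a5* passed in 1 of 11 alternatives, the fit without probes under the limit on every array, where 3 collagen genes were lower. *Col4a3*, *Col4a4* and *Col4a6* were under the limit on all arrays.

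*Col15a1*, a multiplexin of basement membrane zones, varied widely within each tumor genotype. It measured 5.06, 5.21, 6.45 and 7.15 in *NdpKO;Ptch+/-* MBs and 8.42, 5.01, 5.40 and 7.76 in *Ptch+/-* MBs (log2 fold change -0.68, adjusted p = 0.812 by limma). The values overlapped, with *Ptch+/-* replicates 1 and 4 the brightest. The same 2 tumors had the highest summed linear signal of 7 choroid plexus markers, at 32325 and 23428, against 1489 to 9302 in the other *Ptch+/-* MBs and 1896 to 5908 in *NdpKO;Ptch+/-* MBs. *Ttr*, the transthyretin gene that dominates choroid plexus RNA, measured 14.79 and 14.22 there. Among the *NdpKO;Ptch+/-* MBs the ends ran the other way. Replicate 4 had the highest *Col15a1* (7.15) and the lowest sum (1896), and replicate 1 the lowest *Col15a1* (5.06) and the highest sum (5908). The part of the choroid plexus in the *Col15a1* values was not tested.

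Markers of vessel cells were measured beside collagen IV. Of 11 endothelial markers, 1 was higher in *NdpKO;Ptch+/-* MBs (*Emcn*, log2 fold change 1.95, adjusted p = 0.0321), 1 was lower (*Vwf*, at most 8.23 against at least 8.70, adjusted p = 0.0212), and 9 did not pass. The median log2 fold change over the 11 markers was 0.60. Among those that did not pass by limma, *Cdh5* (1.08, adjusted p = 0.235), *Esam* (0.60, adjusted p = 0.107) and *Egfl7* (0.91, adjusted p = 0.0983) were above all *Ptch+/-* MBs in all 4 *NdpKO;Ptch+/-* MBs. Of the 8933 genes whose mean reached the limit in a tumor group, 7.63% were likewise higher without overlap. The summed linear signal ran from 3574 to 5553 in *NdpKO;Ptch+/-* MBs and from 2983 to 4249 in *Ptch+/-* MBs, with *Kdr* and *Tie1* under the limit on every array. None of 11 mural cell markers passed by limma (0 at an adjusted p under 0.05), and their sum ran from 947 to 2455 against 456 to 1285, with *Pdgfrb*, *Tagln* and *Myh11* under the limit. The sums overlapped between the genotypes, and the part of vessel cells in the collagen IV values was not tested.

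Of 14 fibroblast and meningeal markers, 0 passed between the tumor genotypes by limma, and their summed signal ran from 10542 to 13738 in *NdpKO;Ptch+/-* MBs and from 10963 to 16883 in *Ptch+/-* MBs. *Dcn*, the gene of the collagen-binding proteoglycan decorin, measured 9.51, 8.48, 9.06 and 9.99 in *NdpKO;Ptch+/-* MBs and 11.88, 10.66, 10.35 and 11.10 in *Ptch+/-* MBs. These values did not overlap, but the difference did not pass (log2 fold change -1.74, adjusted p = 0.061). Over the 14 markers the median log2 fold change was -0.01, with *Lum* at -1.21 (adjusted p = 0.603) and *Fbln1* at 0.53 (adjusted p = 0.437), both with overlapping values. *Dpt*, *Omd* and *Fmod* were under the limit on every array. The part of fibroblast-like cells in the *Col6a1* and *Col16a1* values was not tested.

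None of the 11 fibrillar genes passed between the tumor genotypes (0 also at an unadjusted p under 0.05 by limma). *Col5a1*, which encodes a chain of collagen V that nucleates fibrils, was the one fibrillar gene with a mean above the limit in tumors. It measured 6.58, 5.24, 6.94 and 6.07 in *NdpKO;Ptch+/-* MBs and 6.96, 5.91, 6.59 and 6.41 in *Ptch+/-* MBs, with overlapping values (log2 fold change -0.26, adjusted p = 0.875). The chains of the abundant fibrillar collagens I and III, *Col1a1*, *Col1a2* and *Col3a1*, were under the limit in all 8 tumors. *Col5a2* reached it in 1 tumor, *NdpKO;Ptch+/-* replicate 1, at 4.54.

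Among the other collagens, *Col28a1*, which encodes a collagen VI-like chain with von Willebrand factor A domains, was higher in *NdpKO;Ptch+/-* MBs at a level close to background. It measured 4.67, 4.35, 4.499 and 4.40 in *NdpKO;Ptch+/-* MBs and 4.15, 4.25, 4.17 and 4.16 in *Ptch+/-* MBs, without overlap. *NdpKO;Ptch+/-* replicate 1 reached the limit and replicate 3 lay just under it, so no fold is given (log2 fold change 0.30, SE 0.06, adjusted p = 0.0456 by limma). The call was kept in 2 of 12 fits without 1 array, those without *NdpKO;Ptch+/-* replicate 1 or 2, and in 5 of 11 alternatives. A second *Col28a1* probe was under the limit on every array (4.12 to 4.17). *Col23a1*, a transmembrane collagen gene, was under the limit in all 4 *NdpKO;Ptch+/-* MBs (4.18 to 4.19) and measured 4.30, 6.70, 6.74 and 4.68 in *Ptch+/-* MBs. The *Ptch+/-* MBs were split, with replicates 1 and 4 near the limit and replicates 2 and 3 well above it, and the difference did not pass (adjusted p = 0.267 by limma). Replicates 1 and 4 had the highest choroid plexus sums, while the *NdpKO;Ptch+/-* MBs, all under the limit for *Col23a1*, had sums of 1896 to 5908. A link was not tested.

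**Figure D3:**
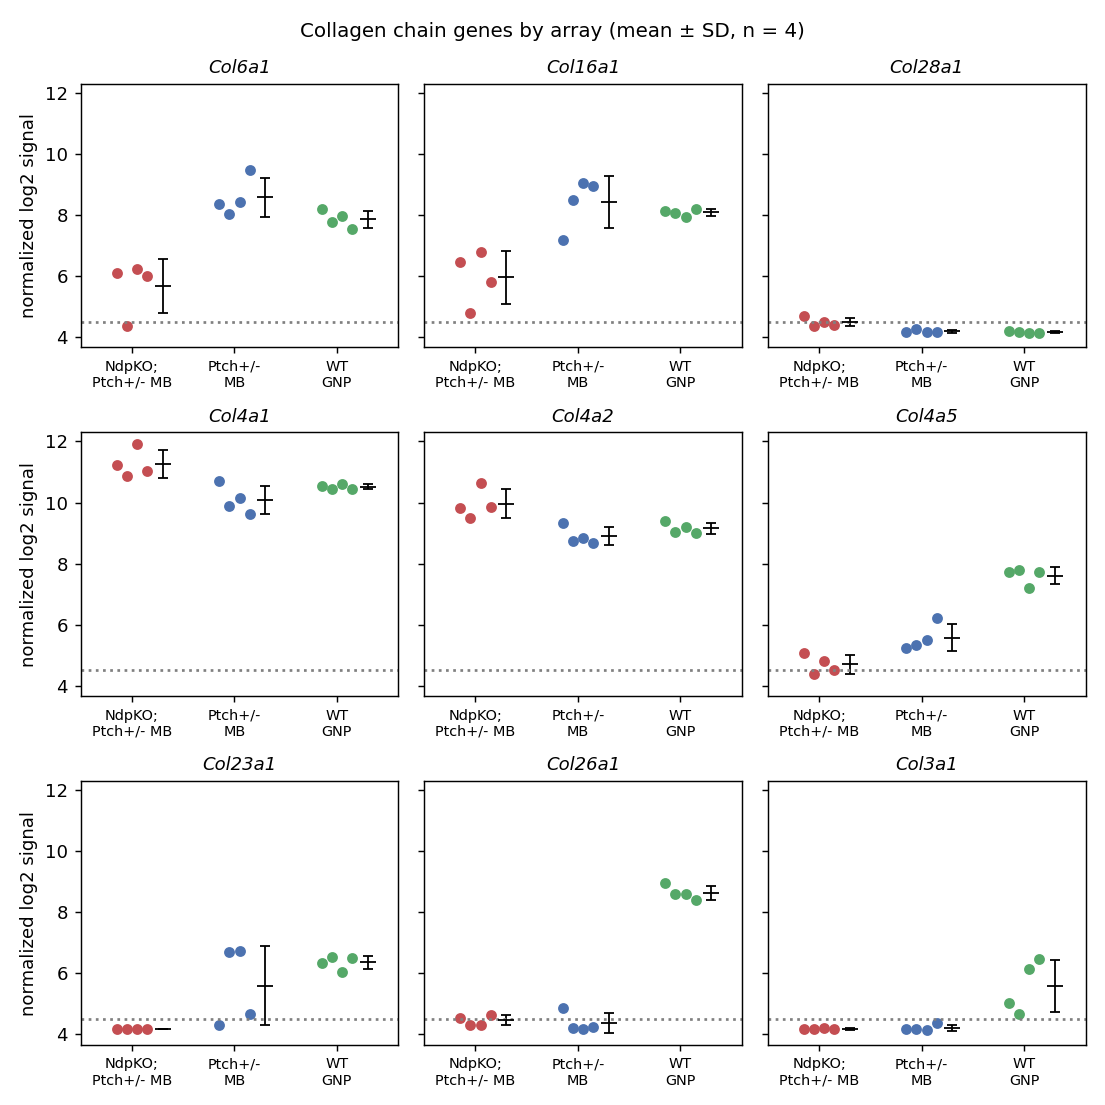
Log2 normalized signal on each array (points, in order of replicate number, with mean ± SD beside them, n = 4, and the limit of 4.5 dotted) for 9 of the collagen chain genes named in the comparisons, by group. For *Col6a1* and *Col16a1* the *NdpKO;Ptch+/-* MB points lie below both other groups; for *Col4a1* and *Col4a2* they lie above the *Ptch+/-* MB points.

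Against wild-type GNPs, *Ptch+/-* MBs had 5 collagen chain genes that were lower and 0 that were higher by limma, and *NdpKO;Ptch+/-* MBs had 9 lower and 1 higher. Of all genes, 10.3% were called higher and 10.9% lower in *Ptch+/-* MBs, and 7.69% higher and 7.98% lower in *NdpKO;Ptch+/-* MBs. At an unadjusted p under 0.05, 2 collagen genes were higher and 11 lower in *Ptch+/-* MBs, and 3 were higher and 13 lower in *NdpKO;Ptch+/-* MBs. The 5 lower genes in *Ptch+/-* MBs were *Col26a1*, *Col4a5*, *Col3a1*, *Col2a1* and *Col9a1*. In *NdpKO;Ptch+/-* MBs the lower genes were those and *Col6a1*, *Col16a1*, *Col23a1* and *Col22a1*, and the higher gene was *Col28a1* (log2 fold change 0.32, adjusted p = 0.00642). Both comparisons use the same GNP arrays, so they are not independent of each other, and whether the effects against GNPs differ between the genotypes is the direct comparison of the tumors above. *Col9a1* and *Col22a1* were under the limit in all samples, so no fold is given for them. The median log2 fold change over the 41 genes was -0.0037 in *Ptch+/-* MBs and -0.0085 in *NdpKO;Ptch+/-* MBs, against -0.0005 and 0.0004 over all genes.

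**Figure D4:**
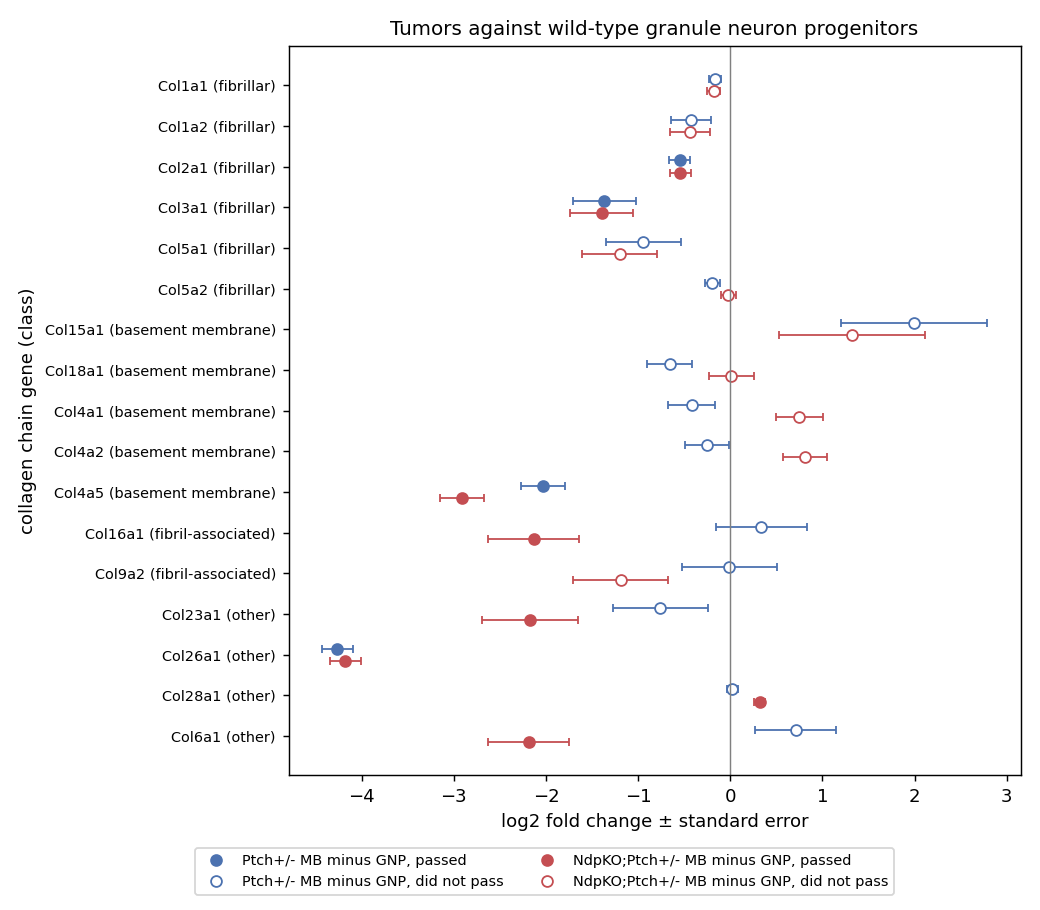
Log2 fold change of *Ptch+/-* MBs (blue) and *NdpKO;Ptch+/-* MBs (red) against GNPs, with standard errors from limma, for the 17 collagen chain genes that reached the background limit; filled points passed at an adjusted p under 0.05. *Col26a1* lies near -4.26 and -4.18 and *Col4a5* at -2.03 and -2.91 in the 2 tumor genotypes, whereas *Col6a1*, *Col16a1* and *Col23a1* passed in *NdpKO;Ptch+/-* MBs alone; the 2 comparisons share the GNP arrays.

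*Col26a1*, which encodes a short collagen with an EMI domain, was far above background in GNPs and near it in tumors. It measured 8.95, 8.59, 8.60 and 8.40 in GNPs, 4.85, 4.21, 4.18 and 4.25 in *Ptch+/-* MBs, and 4.55, 4.32, 4.33 and 4.65 in *NdpKO;Ptch+/-* MBs. Above the limit were 1 *Ptch+/-* and 2 *NdpKO;Ptch+/-* arrays, and no tumor overlapped the GNPs. The fitted differences were -4.26 on the log2 scale (SE 0.17, adjusted p = 2.72e-07) in *Ptch+/-* MBs and -4.18 (adjusted p = 3.68e-07) in *NdpKO;Ptch+/-* MBs by limma, and are not exact because the other tumor arrays lay under the limit. With the mean of all *Col26a1* probes, the others of which lay under the limit on every array, the differences were -1.42 and -1.39.

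*Col4a5* was also lower in both tumor genotypes than in GNPs, where it measured 7.74, 7.78, 7.195 and 7.71. All 8 tumors lay below all 4 GNP samples. The difference was 4.09-fold in *Ptch+/-* MBs (log2 fold change -2.03, adjusted p = 0.000392) and 7.51-fold in *NdpKO;Ptch+/-* MBs (-2.91, adjusted p = 5.93e-05) by limma. In *NdpKO;Ptch+/-* MBs 1 of 4 arrays was under the limit, so that value is a fitted one. A second *Col4a5* probe, at 5.38 to 6.67 in GNPs and under the limit in every tumor, passed as well.

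The other basement membrane genes did not pass against GNPs in the fit over all probes. In *NdpKO;Ptch+/-* MBs *Col4a2* passed as higher in 6 of 11 alternatives and *Col4a1* in 4 of 11, and *Col18a1* passed as lower in *Ptch+/-* MBs in 2 of 11. *Col4a1* measured 10.44 to 10.61 and *Col4a2* 9.01 to 9.38 in GNPs, below every *NdpKO;Ptch+/-* MB and above 3 of 4 *Ptch+/-* MBs. For *Col4a1* the log2 fold change was -0.42 in *Ptch+/-* MBs (adjusted p = 0.328) and 0.75 in *NdpKO;Ptch+/-* MBs (adjusted p = 0.0959). For *Col4a2* it was -0.25 (adjusted p = 0.544) and 0.81 (adjusted p = 0.0536). *Col18a1* measured 11.66 to 11.80 in GNPs and differed by -0.66 in *Ptch+/-* MBs (adjusted p = 0.0993) and 0.01 in *NdpKO;Ptch+/-* MBs (adjusted p = 0.985). *Col15a1* measured 4.37 to 5.17 in GNPs. Its differences of 2.00 in *Ptch+/-* MBs (adjusted p = 0.123) and 1.32 in *NdpKO;Ptch+/-* MBs (adjusted p = 0.352) did not pass by limma. The summed endothelial marker signal ran from 5218 to 7689 in GNPs. That was above every *Ptch+/-* MB (2983 to 4249) and overlapped the *NdpKO;Ptch+/-* MBs (3574 to 5553). The median log2 fold change of these markers against GNPs was -1.04 in *Ptch+/-* MBs and -0.39 in *NdpKO;Ptch+/-* MBs. The part of vessel cells in these differences was not tested.

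*Col6a1* measured 8.18, 7.77, 7.94 and 7.53 in GNPs, within or just below the *Ptch+/-* MB range and above all *NdpKO;Ptch+/-* MBs. It was 4.56-fold lower in *NdpKO;Ptch+/-* MBs than in GNPs (log2 fold change -2.19, adjusted p = 0.00979 by limma), and the difference in *Ptch+/-* MBs was 0.71 (adjusted p = 0.333). *Col16a1* measured 8.13, 8.07, 7.93 and 8.18 in GNPs. It was 4.39-fold lower in *NdpKO;Ptch+/-* MBs (-2.13, adjusted p = 0.0188), and the difference in *Ptch+/-* MBs was 0.34 (adjusted p = 0.718). *Col23a1* measured 6.36, 6.53, 6.06 and 6.49 in GNPs and was at least 3.63-fold lower in *NdpKO;Ptch+/-* MBs, which were all under the limit (adjusted p = 0.0226). That call was lost without *NdpKO;Ptch+/-* replicate 1 or 3 or GNP replicate 1, 2 or 4 (adjusted p up to 0.0595). In *Ptch+/-* MBs the difference of *Col23a1* was -0.76 (adjusted p = 0.390). *Col9a2* measured 6.56 to 7.13 in GNPs and differed by -0.01 in *Ptch+/-* MBs (adjusted p = 0.993) and -1.19 in *NdpKO;Ptch+/-* MBs (adjusted p = 0.187).

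Of the 6 fibrillar genes that reached the limit, 4 reached it on GNP arrays alone: *Col3a1*, *Col2a1*, *Col1a2* and *Col1a1*. *Col3a1*, the chain of collagen III, measured 5.04, 4.68, 6.13 and 6.47 in GNPs and was under the limit in all 8 tumors, at least 2.12-fold lower in each genotype (adjusted p = 0.0213 in *Ptch+/-* MBs and 0.0247 in *NdpKO;Ptch+/-* MBs by limma). For *Col3a1* the call in *Ptch+/-* MBs was lost without *Ptch+/-* replicate 2, *Ptch+/-* replicate 3 or GNP replicate 3 (adjusted p up to 0.058), and that in *NdpKO;Ptch+/-* MBs without any 1 of the 4 *NdpKO;Ptch+/-* arrays or GNP replicate 3 (adjusted p up to 0.0659). The remaining *Col3a1* probe stayed under the limit on every array, GNPs included (4.11 to 4.17). *Col2a1*, the cartilage collagen chain, measured 4.97, 4.95, 4.40 and 4.70 in GNPs. It was at least 1.19-fold lower in each genotype (adjusted p = 0.00793 and 0.0111 by limma). *Col1a2* reached the limit in GNP replicate 3, at 5.40, and *Col1a1* in GNP replicate 2, at 4.52, and neither passed. *Col5a1* measured 7.95, 7.70, 7.32 and 6.66 in GNPs (log2 fold change -0.94, adjusted p = 0.154 in *Ptch+/-* MBs, and -1.20, adjusted p = 0.0909 in *NdpKO;Ptch+/-* MBs).

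Meningeal markers were present in the GNP samples as well. *Slc6a13*, a GABA transporter gene of the meninges, measured 9.01, 8.45, 9.04 and 8.72 in GNPs, 6.21, 4.32, 4.24 and 6.02 in *Ptch+/-* MBs, and was under the limit in *NdpKO;Ptch+/-* MBs. *Slc22a6* measured 6.54, 4.62, 5.59 and 6.41 in GNPs and was under the limit in every tumor. Both genes were chosen after their values were seen, and other markers of the list were higher in tumors. Of the 14 fibroblast and meningeal markers, 2 were higher and 4 lower in *Ptch+/-* MBs than in GNPs by limma. These stand beside 10.3% of all genes called higher and 10.9% lower. In *NdpKO;Ptch+/-* MBs 1 was higher and 4 lower, beside 7.69% and 7.98%. The median log2 fold changes were -0.15 and -0.46. Their summed signal ran from 16120 to 18682 in GNPs. The part of meningeal cells in the collagen values of GNPs was not tested.

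Genes of collagen folding, processing, receptors and breakdown were counted in the same way. Of 42 measured genes, 2 were higher and 0 lower in *NdpKO;Ptch+/-* MBs, and 40 did not pass by limma, beside 0.808% of all genes called higher and 1.26% lower. *Pcolce2*, an enhancer of procollagen C-terminal cleavage, measured 5.08, 4.57, 5.21 and 4.65 in *NdpKO;Ptch+/-* MBs and was under the limit in all *Ptch+/-* MBs. It was at least 1.30-fold higher (fitted log2 fold change 0.69, adjusted p = 0.0345 by limma). *Itga1*, the α1 chain of a collagen-binding integrin, passed with all values under the limit (4.13 to 4.31, adjusted p = 0.0357). The lysyl hydroxylase, prolyl hydroxylase and lysyl oxidase genes did not pass.

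Against GNPs, 4 of the 42 genes were higher and 4 lower in *Ptch+/-* MBs, and 3 were higher and 3 lower in *NdpKO;Ptch+/-* MBs. These counts are near the all-gene shares of 10.3% and 10.9%, and of 7.69% and 7.98%, so they show nothing particular to the list. They include *P3h2* and 1 receptor gene, higher in *Ptch+/-* MBs, and *Itga11*, lower in both genotypes. Each of these passed with all values under the limit. *Mmp2*, a gelatinase that degrades denatured collagen and collagen IV, measured 6.52 to 6.90 in GNPs, 9.41 to 9.90 in *Ptch+/-* MBs and 8.17 to 9.26 in *NdpKO;Ptch+/-* MBs. It was higher in *Ptch+/-* MBs (log2 fold change 2.98, adjusted p = 4.07e-05) and in *NdpKO;Ptch+/-* MBs (2.01, adjusted p = 0.000676), and the difference between the genotypes was -0.97 (adjusted p = 0.110) by limma. *Plod2*, a lysyl hydroxylase of collagen telopeptides, was higher by 0.94 in *Ptch+/-* MBs (adjusted p = 0.00106) and by 1.01 in *NdpKO;Ptch+/-* MBs (adjusted p = 0.000932). *Sec23a*, a coat protein that exports procollagen from the endoplasmic reticulum, was lower in *Ptch+/-* MBs (log2 fold change -0.95, adjusted p = 4.36e-05) and in *NdpKO;Ptch+/-* MBs (-0.62, adjusted p = 0.000855). *Serpinh1*, the collagen chaperone HSP47, was lower in *Ptch+/-* MBs (-0.84, adjusted p = 0.0113), and its difference of -0.60 in *NdpKO;Ptch+/-* MBs did not pass (adjusted p = 0.0636), although all 4 lay below all GNP samples. *P4ha1*, a catalytic subunit of prolyl 4-hydroxylase, was higher in *NdpKO;Ptch+/-* MBs (1.07, adjusted p = 0.0373), and its difference in *Ptch+/-* MBs was 0.11 (adjusted p = 0.857). *Mia3*, which loads procollagen for export, was lower in both genotypes (-0.63, adjusted p = 0.00708, and -0.65, adjusted p = 0.00794).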

How the data were processed

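The 12 BeadChip profiles cover 4 *NdpKO;Ptch+/-* MBs, 4 *Ptch+/-* MBs and 4 wild-type GNP samples. The deposited values are log2 signals, for which the authors ran neqc from limma (correction for background with negative controls, then an offset and quantile normalization). They run from 4.093 to 16.04 over 45281 probes, and the limma version is not given in the sources used here. Precision is limited by having 4 arrays a group. The platform annotation gave 1 gene symbol to 34885 probes, several to 18 and none to 10378. All 41 collagen gene identifiers carried the same symbol in RefSeq.

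Values were fitted in R 4.3.3 with limma 3.58.1 (lmFit and eBayes, a group-means model over 12 arrays, no covariates), with Benjamini-Hochberg adjustment over all probes and a threshold of 0.05. The files hold no detection p-values, so a limit of 4.5 was set, with 5 as an alternative. A group under 4.5 on all its arrays was set to 4.5 and gave an "at least" fold, and no fold was given where both groups lay under it.

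The members, classes, pathway list, marker lists and alternatives were chosen with earlier results of these data known. Named genes were those that passed or did not overlap between the tumor genotypes, in each class the 3 with the highest means and the 2 largest rises and falls that passed against GNPs, partner chains of named genes, pathway genes that passed between the tumors, the 4 pathway genes that passed with the largest changes against GNPs in each tumor genotype, and genes that complete a count of 5 or fewer. *Col1a1*, *Col1a2*, *Col15a1*, *Col22a1* and the named markers were chosen after their values were seen. Alternatives were 2 filters on dim probes, an intensity trend with robust prior, array weights, the 2 groups alone, a replicate block, a second quantile normalization, centred arrays, the mean of the probes of a gene, a threshold of 0.01, and leaving out each array. The 2 groups alone without dim probes was added after seeing the data. BeadChip positions are not given in the sources used here and could not be used as a batch.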

Additional observations from a re-analysis of the deposited data

Results flagged for a closer look

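The check covered collagen chain genes named by rule, in groups where an array reached the limit. *Col15a1*, *Col1a1* and *Col1a2* were not checked. Of 33 sets of 4 arrays checked, 3 held a sample far from the other 3 of its group, by Dixon's test. Chance gives such a sample in about 1 in 20 sets. *Col6a1* measured 4.36 in *NdpKO;Ptch+/-* MB replicate 2, against 5.99 to 6.21 in the other *NdpKO;Ptch+/-* MBs. *Col26a1* measured 4.85 in *Ptch+/-* MB replicate 1, against 4.18 to 4.25 in the other *Ptch+/-* MBs. *Col4a5* measured 7.195 in GNP replicate 3, against 7.71 to 7.78 in the other GNP samples.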

How the results depend on the processing

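The number of collagen chain genes higher in *NdpKO;Ptch+/-* MBs than in *Ptch+/-* MBs, 1 as reported, was 2 without probes under the limit on every array, 3 without probes at or under the median, 3 with an intensity trend and robust prior, and 3 with the mean of the probes of a gene, where *Col4a1* and *Col4a2* were added or stood in place of *Col28a1*. It was 0 with the tumors alone, with arrays centred, at a threshold of 0.01, and with the tumors alone without dim probes. The number lower, 2 as reported, was 3 without probes under the limit on every array (*Col4a5* added), 1 with array weights, 0 with the tumors alone, 0 at a threshold of 0.01, and 1 with the tumors alone without dim probes. *Col6a1* passed in 9 of 11 alternatives, *Col16a1* in 6 of 11 and *Col28a1* in 5 of 11. Against GNPs, the number higher in *Ptch+/-* MBs, 0 as reported, was 1 without probes under the limit (*Col15a1*) and 1 with the mean of the probes (*Col4a4*). The number higher in *NdpKO;Ptch+/-* MBs, 1 as reported, was 3 without probes under the limit, 2 without probes at or under the median, 3 with the trend, 3 with array weights, 2 with the 2 groups alone, 2 with the mean of the probes and 3 with the 2 groups alone without dim probes, where *Col4a1*, *Col4a2* or both were added except with the 2 groups alone (*Col8a1*). The number lower in *NdpKO;Ptch+/-* MBs, 9 as reported, was 4 at a threshold of 0.01. The cause of these shifts was not tested.

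Without 1 array at a time, the genes higher and lower between the tumor genotypes numbered 0 to 1 and 1 to 2. Against GNPs they numbered 0 to 1 and 4 to 6 in *Ptch+/-* MBs, and 1 to 3 and 6 to 9 in *NdpKO;Ptch+/-* MBs.

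Replicate numbers did not pair the samples: deviations of tumors with the same number correlated at -0.18 to 0.09 and 0 tumors correlated best with the tumor of their own number. With the replicate number as a block, 0 genes were higher and 1 lower between the tumor genotypes. The values near 4.5 are limited by signal over background, and the limit of 5 in place of 4.5 left 8, 10 and 11 genes above it in *NdpKO;Ptch+/-* MBs, *Ptch+/-* MBs and GNPs.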
